A study of Homo sapiens with 4 samples.

Results

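Genes that span at most 5 kb (5000 bases) from the start to the end of the annotated gene held 1211 of the 17945 pairs of a cytidine position and a gene in the deposited tables. A pair was a member when the gene's span, as the tables give it, was at most 5000 bases and the position lay outside noncoding exons. The members were 1209 distinct cytidines in 464 of the 5873 genes, 425 of the 8073 pairs in untreated cells and 943 of the 11883 after TGF-β1. The rule used gene length and location, not the measured values. The median span of the 464 genes was 3224 bases and the shortest was 90. RefSeq held 448 of these genes by symbol, of which 447 were protein coding.

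The study compared LX-2, an established human hepatic stellate cell line of wild-type genotype, in 2 untreated libraries and 2 libraries from cells held with TGF-β1 for 24 h at a dose of 5 ng/ml. TGF-β1 is the cytokine that drives stellate cells toward the matrix-producing myofibroblast of the scarred liver. All 4 libraries came from this 1 line and were made from polyadenylated RNA treated with sodium borohydride (NaBH4). Each group was deposited as 1 table of cytidines, with 1 mismatch difference and 1 p-value of the authors for each, and no reads, depths or values per library.

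N4-acetylcytidine (ac4C) is an acetylated cytidine that the enzyme NAT10 writes in ribosomal and transfer RNA, and that has been described in messenger RNA, where it has been linked to stability and translation. NaBH4 turns ac4C into a reduced base, which reverse transcriptase reads wrongly, so the modified cytidine shows up as a mismatch. Short genes have few or no introns, and many encode ribosomal proteins, histones, small mitochondrial proteins and early response genes. No library was labelled as made without NaBH4 or without NAT10, so whether a listed cytidine carried ac4C was not tested. With 1 value per position and group, no difference below has a replicate check, and intervals cover counting error only. Since the tables give no reads, more RNA from a gene and more mismatch at its cytidines cannot be told apart in a count of listed positions.

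The cytidines near a gene's start could be set in their sequence, since RefSeq promoter windows of GRCh38.p14 run from 250 bases before to 50 bases after the annotated start. In these windows 57 of 57 member positions, and 273 of 273 in longer genes, fell on a C of the transcript strand, which checks the reading of the coordinates in hg38. Of the 57, 25 were in the control table and 37 in that of TGF-β1, so 5 were in both. The first set below shows the 5 cytidines in both tables, which allow a comparison of levels at 1 base. The second set shows neighbouring cytidines of CXCL8 and BANF1, where the tables listed different bases of the same stretch or only the control had any. Each sequence is printed 5′ to 3′ on the transcript strand, and the capital marks the listed cytidine.
SLC35A4, 5′UTR, chr5:140564826-140564846, plus strand: acaagttcggCggggaagatg
ROMO1, 5′UTR, chr20:35699434-35699454, plus strand: acccagcccgCgagcgaggtg
DUSP1, 5′UTR, chr5:172771160-172771180, minus strand: gctgtgtgtgCgacgcgggtc
PSMC5, 5′UTR, chr17:63827497-63827517, plus strand: cttgacggacCagagcaggta
SLC2A4RG, 3′UTR, chr20:63743722-63743742, plus strand: aagctaatccCgtcacagaaa
CXCL8, 5′UTR, chr4:73740548-73740568, plus strand: caccggagcaCtccataaggc
CXCL8, 5′UTR, chr4:73740551-73740571, plus strand: cggagcactcCataaggcaca
CXCL8, 5′UTR, chr4:73740558-73740578, plus strand: ctccataaggCacaaactttc
BANF1, 5′UTR, chr11:66002462-66002482, plus strand: gctcttgaagCgacccggaag
BANF1, 5′UTR, chr11:66002466-66002486, plus strand: ttgaagcgacCcggaagcgga
BANF1, 5′UTR, chr11:66002467-66002487, plus strand: tgaagcgaccCggaagcggaa
BANF1, 5′UTR, chr11:66002473-66002493, plus strand: gacccggaagCggaagtggaa

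The cytidine of SLC35A4, a nucleotide sugar transporter gene whose leader also encodes a small protein, had a mismatch difference of 9.30% in untreated cells and 11.2% after TGF-β1. That of ROMO1, a small mitochondrial membrane protein linked to reactive oxygen, had 7.59% and 9.19%. That of DUSP1, a phosphatase that switches off MAP kinases, had 3.88% and 4.44%. These 3 lay within 50 bases of the RefSeq start and were each higher after TGF-β1. The cytidine of PSMC5, an ATPase subunit of the proteasome, was lower after TGF-β1, at 1.41% against 2.50%. This cytidine lay 214 bases before the RefSeq start. That of SLC2A4RG, a regulator of the gene for the glucose transporter GLUT4, was also lower, at 3.94% against 7.76%. The SLC2A4RG window is that of the neighbouring gene ZBTB46-AS2, whose RefSeq start lies 93 bases downstream of the cytidine.

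CXCL8 encodes the chemokine interleukin-8, which recruits neutrophils. Its 3 listed cytidines, 39, 42 and 49 bases from the gene start of the tables, had 7.27%, 7.10% and 7.70% in control, and none was listed after TGF-β1. BANF1 encodes a DNA-bridging protein of the nuclear envelope. Its cytidines at 2.29%, 3.33% and 3.98% were listed in control, and the one printed second, directly before the control cytidine of 3.33%, had 4.003% after TGF-β1. The BANF1 stretch was thus listed in both tables at different bases. The printed cytidines of CXCL8 and BANF1 all lay before the RefSeq start, by 1 to 11 bases and by 20 to 31 bases.

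At the 56 windowed members with both neighbours in the window, a G followed the cytidine at 32 (57.1%, 95% Wilson interval 44.1 to 69.2). In genes over 5 kb the windowed positions had the same trait, with a G after 162 of 270. Over all 6782 cytidines in the first 50 bases after the start in the 458 windows of the short genes, a G followed 32.6%. A G preceded the cytidine at 48.2% of members, at 135 of the 270 positions of longer genes and at 39.5% of all those cytidines. A C followed at 8.93% of members, 27 of the 270 and 30.4% of the cytidines. The motif CCG with the listed cytidine in its middle, the context in which ac4C occurs in ribosomal RNA, was found at 7 of the 56 (12.5%, 6.19 to 23.6), beside 11.5% in longer genes and 11.2% of the cytidines in the first 50 bases. Some members lay before the RefSeq start (9 in control and 8 after TGF-β1), so the members and those cytidines do not cover the same region. CCG was searched on the transcript strand only, and at least 1 CCG was in the first 50 bases of 76.2% of the windows of these genes, of 72.3% of those of the listed longer genes and of 51.4% of all 34943 RefSeq windows. These shares describe the region around gene starts only, as the sequence around the remaining members was not used here.

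Short genes had 2.22 listed cytidines after TGF-β1 for each in control (95% interval 1.98 to 2.49), the highest ratio of the 5 span classes compared. Genes of 5 to 20 kb had 2.04, those of 20 to 50 kb 1.65, those of 50 to 200 kb 0.981 and those over 200 kb 0.678. All genes together had 1.47 and all genes over 5 kb 1.43. The interval of the short genes overlapped that of the next class (1.93 to 2.16) and lay above those of the other 3. These intervals treat each listing as independent, which does not hold strictly. In short genes 157 cytidines were counted in both tables, and some stood within 10 bases of another. With the TGF-β1 table shortened to about the control's length by lowest p, short genes had 1.68 (1.49 to 1.90), against 1.43 for 5 to 20 kb and 1.02 for all genes. This shortening favoured short genes, whose TGF-β1 positions had the lowest median authors' p of the classes. That median was 2.33e-07, against 4.48e-06 for 5 to 20 kb and 1.05e-05 for all genes. The shortening kept 713 of 943 positions in short genes and 8204 of 11883 in all genes. The members made up 5.26% of the control table and 7.94% of the TGF-β1 table.

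**Figure D1:**
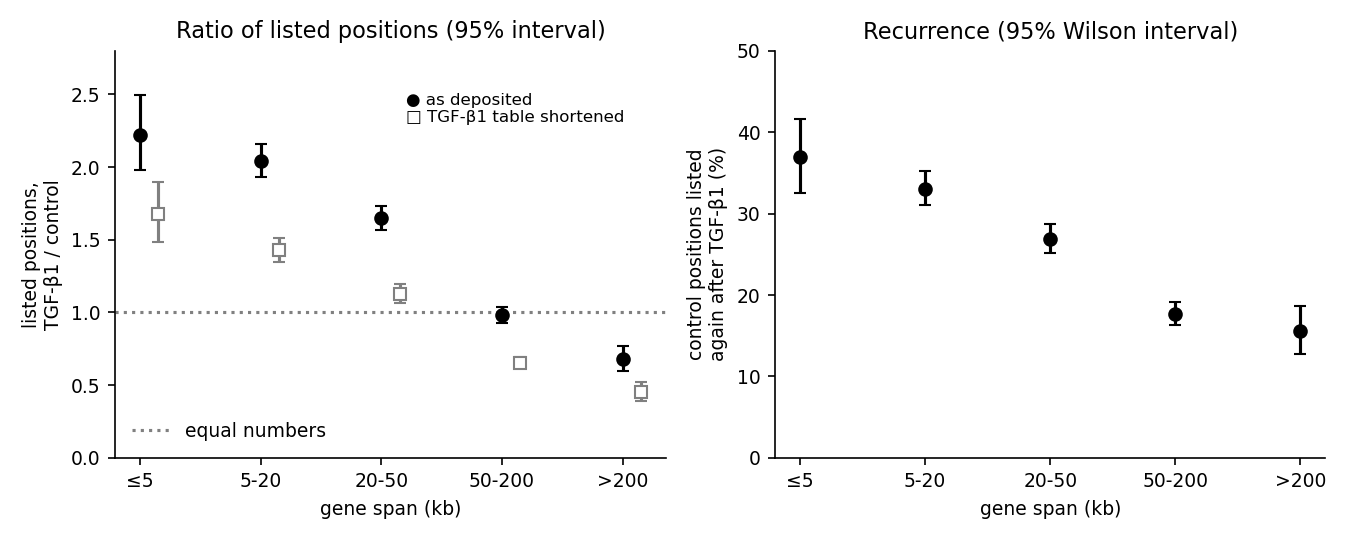
The left panel plots, for each class of gene span in kb, the number of positions listed after TGF-β1 divided by that in control, with the exact binomial 95% interval, as deposited (filled circles) and with the TGF-β1 table shortened (open squares). The right panel plots the share of control positions listed again after TGF-β1 in percent, with its 95% Wilson interval. Short genes stand at 2.22 and 36.9%, and both measures are lower in each longer class.

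The same cytidine was listed again more often in short genes than over all genes. Of the 425 control members 157 were in the TGF-β1 table (36.9%, 32.5 to 41.6), against 24.9% of all control positions. The share was 33.1% for 5 to 20 kb, 26.9% for 20 to 50 kb, 17.7% for 50 to 200 kb and 15.5% for longer genes. The interval for 5 to 20 kb (31.0 to 35.2) overlapped that of the short genes. Within the 214 short genes present in both tables it was 44.1% of 356 control positions, against 34.9% for all genes in both. Read from the TGF-β1 table, 16.6% of the short-gene cytidines were also in control, close to the 16.9% of all genes. Thus 786 of the 943 were listed after TGF-β1 alone.

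More of the short genes gained listed positions than lost them. After TGF-β1 319 of the 464 genes had more (68.8%, 64.4 to 72.8), 80 had fewer (17.2%) and 65 had equal numbers. Of all genes 51.7% had more and 34.8% had fewer. Of genes of 5 to 20 kb 64.4% had more (62.2 to 66.7, overlapping the interval of short genes) and 21.8% had fewer. Of the 464 short genes 55 were in the control table alone and 195 in that of TGF-β1 alone, against 1569 and 1641 of all 5873 genes. In control 37 of the 269 short genes listed had 3 or more positions (13.8%), and after TGF-β1 132 of 409 did (32.3%). Both shares were below those of all genes, 20.7% and 36.4%.

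Of the 157 cytidines in both tables, 126 had the higher level after TGF-β1 (80.3%, 73.3 to 85.7) and 31 the lower one. Of all shared positions 78.4% were higher. The shared members had a median of 3.88% before and 5.71% after treatment. Their differences had a median of 1.48 percentage points (quartiles 0.253 and 2.93), against 1.72 points for the shared positions of all genes. On the log2 scale the median ratio of the levels was 0.40 in short genes and 0.60 in genes over 5 kb. Gains of 5 points or more were seen at 21 members (13.4%), beside 20.9% of all shared positions, and losses of that size at 2.

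The largest upward difference was in the 3′UTR of CD68 (ENSG00000129226), a lysosomal glycoprotein used as a macrophage marker, at chromosome 17 position 7581701, where 16.5% in control stood against 32.0% after TGF-β1. HLA-E (ENSG00000204592), the nonclassical MHC class I molecule that natural killer cells read, followed with 8.55% and 21.3% in its coding sequence at chromosome 6 position 30491168. CENPB, which binds the alpha satellite DNA of centromeres, had 7.92% and 19.0% in its coding sequence. All 3 cytidines were more than 11 points higher after TGF-β1, and CD68 started from the highest level.

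RRS1, a ribosome assembly factor, stood at 9.61% in control and at 20.5% with TGF-β1. CIAO2B, which helps load iron-sulfur clusters onto proteins, had 7.91% and 17.2%. SELENOH, a nucleolar selenoprotein, had 4.98% and 13.2% at chromosome 11 position 57741898, and TIMM17B, a subunit of the mitochondrial import channel, had 10.5% and 18.3%. The named cytidines of these 4 genes lay in coding sequence.

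The largest downward difference was at RRAS, a small GTPase related to the RAS proteins, where a coding cytidine at chromosome 19 position 49640078 had 22.5% in control against 11.3% with TGF-β1. GFER, a sulfhydryl oxidase of the mitochondrial intermembrane space, had 14.6% and 7.79% in its 3′UTR. ENDOG, a mitochondrial nuclease, had 6.10% and 1.54%. These 3 were followed by UBXN1, a ubiquitin-binding partner of the ATPase p97, with 12.4% and 8.44%.

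Within 1 gene the direction was not always the same. SELENOH had a second shared cytidine at chromosome 11 position 57741676 that was lower after TGF-β1, at 1.46% against 3.61%. UBXN1 had another that was higher, at 8.26% against 2.67%. BST2, the virus-tethering protein tetherin, had 5.45% and 2.63% at 1 cytidine and 2.41% and 9.06% at another. SLC2A4RG, lower at its 3′UTR cytidine, had 3.68% and 7.47% at a coding one. BTBD6, an adaptor of a ubiquitin ligase, had its 1 shared cytidine lower, at 3.55% against 5.65%.

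**Figure D2:**
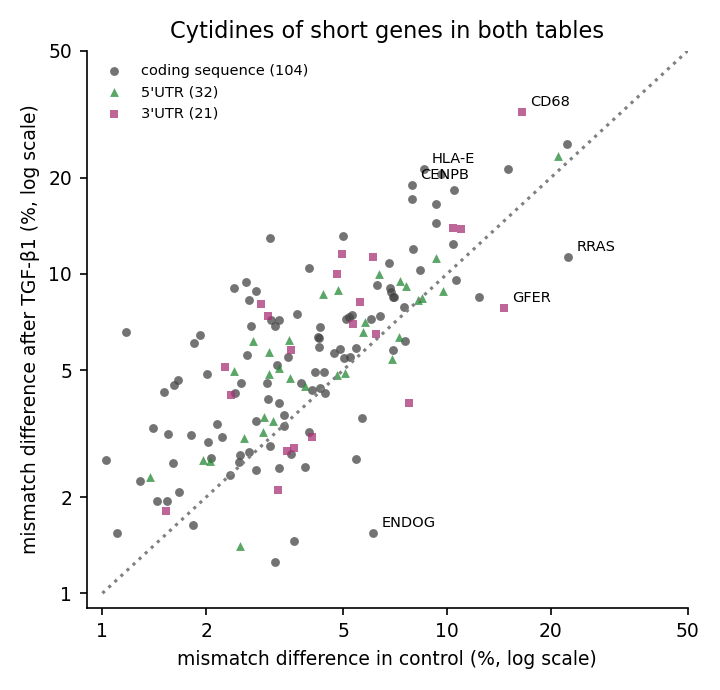
Each point is 1 of the 157 cytidines of short genes in both tables, with its mismatch difference in control (x, percent, log scale) and after TGF-β1 (y, percent, log scale), and the dotted line marks equal values. The 126 points above the line include CD68, HLA-E and CENPB, and the 31 below it include RRAS, GFER and ENDOG.

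Cytidines listed in 1 table alone held the highest mismatch differences. In control alone SLC2A4RG had 33.7% in its coding sequence at chromosome 20 position 63740423, MAF1, the repressor of RNA polymerase III, had 25.3% in its 5′UTR, and VEGFB, a vascular growth factor, had 24.1% in its 3′UTR. H3-5, a histone H3 variant gene, had 23.3%, CCDC71, of unsettled function, 22.4%, and CCDC115, an assembly factor of the proton pump of lysosomes, 22.2%. These 6 had no value in the TGF-β1 table, which does not show that the mismatch was absent there. Their authors' p was 0.0465 at H3-5, near the listing limit of 0.05, and lower at the others.

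After TGF-β1 alone ISYNA1 (ENSG00000105655), the enzyme that makes inositol phosphate from glucose phosphate, had 43.1% in its coding sequence at chromosome 19 position 18435782, the highest value of a member. FBXW5, a substrate receptor of a ubiquitin ligase, had 39.3% at chromosome 9 position 136942795 and 25.3% at another coding cytidine. NKX2-3, a homeodomain transcription factor, had 37.5%, TMED4, a cargo receptor of the early secretory pathway, 37.4%, CCDC115 36.7% in its 3′UTR, and GRINA, a membrane protein linked to calcium handling, 35.0% in its 3′UTR. The authors' p was listed as exactly 0 at NKX2-3, CCDC115 and GRINA, and at 36 control and 106 TGF-β1 members in all. Of these, 34 in control and 100 after TGF-β1 were listed in that table alone. Among the 157 cytidines in both tables, only 2 in control and 6 after TGF-β1 had this value, GFER in both. An authors' p of 0 thus mostly marked cytidines that were not listed again. At TMED4 the authors' p was 0.0304, the highest of the 6 named genes. CCDC115 thus had a high cytidine in each table, in coding sequence in control and in the 3′UTR after TGF-β1.

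High levels were less frequent in short genes after TGF-β1 than in the whole table. Levels of 10% or more were found at 46 control members (10.8%, against 11.9% of all control positions) and at 114 TGF-β1 members (12.1%, against 18.2% of all). Levels of 20% or more were found at 10 of 425 and 25 of 943 members, beside 178 of 8073 and 490 of 11883 of all positions. The median level of all members was 3.87% before and 4.10% after treatment, against 4.01% and 4.66% over all positions. Cytidines listed after TGF-β1 alone had a median of 3.83%, below the 5.71% of those in both tables, while in control both kinds had 3.87% and 3.88%. The ratio of listed numbers was 2.25 for levels of 1 to 2%, 2.30 for 2 to 3%, 1.83 for 3 to 5%, and between 2.47 and 2.50 in the 3 higher ranges.

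By location, coding sequence held 271 control members (63.8%) and 637 after TGF-β1 (67.6%), 5′UTRs 91 (21.4%) and 157 (16.6%), and 3′UTRs 63 (14.8%) and 149 (15.8%). No member lay in an intron. Short genes had a larger share in 5′UTRs than genes over 5 kb, where it was 9.44% and 9.48%. The ratio of listed numbers was 2.35 (2.04 to 2.72) in coding sequence, 2.37 (1.75 to 3.23) in 3′UTRs and 1.73 (1.32 to 2.26) in 5′UTRs, intervals that overlap. Among shared members, 85 of 104 coding, 26 of 32 5′UTR and 15 of 21 3′UTR cytidines were higher after TGF-β1, with median differences of 1.49, 0.89 and 2.26 points.

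Along the gene, the members were spread more evenly than the positions of longer genes, with the largest share at the start. The first 20% of the span held 26.8% of control and 25.1% of TGF-β1 members, and the last 20% held 19.5% and 21.8%. In genes over 5 kb the last 20% held 37.3% and 37.8%, and the first 20% held 15.9% and 16.5%. The median member lay 47.8% of the span from the start in control and 51.7% after TGF-β1. In bases, these medians were 1348 and 1313.

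**Figure D3:**
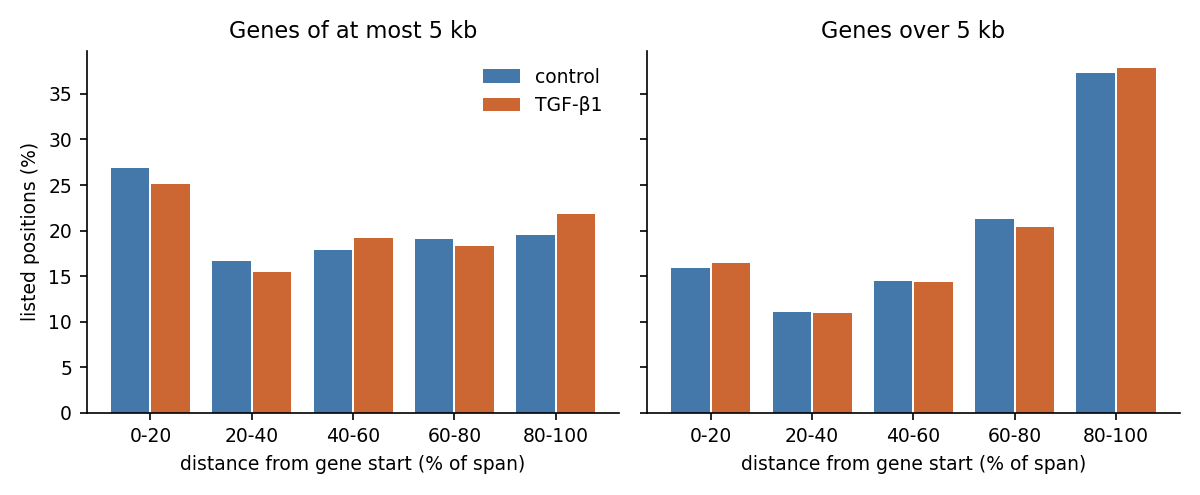
Bars give the share of listed positions (percent, y) in each 20% of the gene span from start to end (x) for control and TGF-β1, in genes of at most 5 kb (left) and over 5 kb (right). In short genes the first bar pair is the highest (26.8% and 25.1%), and in longer genes the last (37.3% and 37.8%).

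Members often stood close together. In control 73 (17.2%) had another listed cytidine of the same gene and table within 10 bases, and 178 (18.9%) after TGF-β1, against 10.3% and 13.8% in genes over 5 kb. Directly adjacent pairs numbered 9 among 425 control and 21 among 943 TGF-β1 members. In genes over 5 kb they numbered 164 among 7648 and 266 among 10940, so adjacent pairs were not more frequent in short genes. Where a cytidine was listed in control alone, the other table could hold a nearby one: of 268 such members, 47 (17.5%) had a TGF-β1 cytidine within 10 bases and 14 (5.22%) within 1 base, against 6.83% and 2.52% in longer genes. In the other direction, of 786 members listed after TGF-β1 alone, 7.38% had a control cytidine within 10 bases and 2.29% within 1 base, against 5.87% and 2.03% in longer genes. Among the neighbours, MRPL24, a mitochondrial ribosomal protein gene, had a control cytidine of 4.23% and a TGF-β1 cytidine of 1.34% lying 2 bases apart in its 5′UTR. TIMM17B, the import channel subunit, had 12.7% in control at chromosome X position 48895051 and 20.04% with TGF-β1 at position 48895052. H2AX, the histone variant phosphorylated at DNA breaks, had 3.59% in control and 3.02% at the adjacent base after TGF-β1.

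HLA-E held the most listed cytidines of any short gene, 5 in control and 10 after TGF-β1, with levels of 1.85% to 8.55% and 1.69% to 21.3%. Only the coding cytidine at 8.55% and 21.3% was in both tables, and 1 at 8.02%, 22 bases from the gene start, was in control alone. C1QL4, a secreted protein of the complement C1q family, had 4 and 7, with a highest value of 21.8% after TGF-β1 alone and 6.35% and 10.0% at a shared 5′UTR cytidine. G0S2, an inhibitor of fat breakdown by the lipase ATGL, had 3 and 8. Its 3 control cytidines were in both tables and higher after TGF-β1, at 7.31% and 9.49%, 1.96% and 2.61%, and 1.53% and 1.81%.

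MRFAP1, a partner of the MORF4 family of chromatin proteins, had 5 and 6 positions, and 4 cytidines in both tables. These 4 were each higher after TGF-β1, from 2.67% and 2.76% at the least different to 6.08% and 11.3% at the 3′UTR cytidine. CENPB had 4 and 6, OAZ1, the antizyme that degrades ornithine decarboxylase, 4 and 6, and COPS6, a subunit of the COP9 signalosome, 5 and 5. OAZ1 had 2 cytidines in both tables, both higher after TGF-β1 (2.05% and 2.60% in the 5′UTR, 2.37% and 4.18% in the 3′UTR).

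The gain in number was largest at HLA-C, a classical MHC class I gene, with 1 control and 8 TGF-β1 cytidines. Its 1 control cytidine, of 2.03%, was also listed after TGF-β1 at 2.97%. AURKAIP1, FBXW5, NFKBIA and PPDPF had none in control and 6 each after TGF-β1. NFKBIA encodes IκBα, the inhibitor that holds NF-κB in the cytoplasm, and its 6 levels ran from 1.33% to 10.7%. Those of AURKAIP1, a mitochondrial protein that also binds Aurora A, ran from 1.30% to 16.8%, and those of PPDPF, a pancreatic progenitor factor, from 1.99% to 6.34%. IER3, an early response gene, had 1 and 7, of which 6 lay in the 3′UTR between 1.11% and 3.03% and 1 in coding sequence at 11.4%.

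HEXIM1, the inhibitor of the elongation kinase P-TEFb, showed the largest loss. Its 5 control cytidines had 1.60%, 4.17%, 10.9%, 4.27% and 14.1%, and none was listed after TGF-β1. CXCL8 had 3 and none, as shown above, and PSMC5 7 and 4. PSMC5 had 5.31% and 7.46% at its shared coding cytidine, while its 5′UTR cytidines of 9.94% and 8.60%, lying 2 bases apart, were in control alone. CHMP2A, a subunit of the membrane-cutting ESCRT complex, and CITED2, a coactivator that competes for p300, had 2 and none each. PSMC5 was the one of these genes with a cytidine in both tables.

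**Figure D4:**
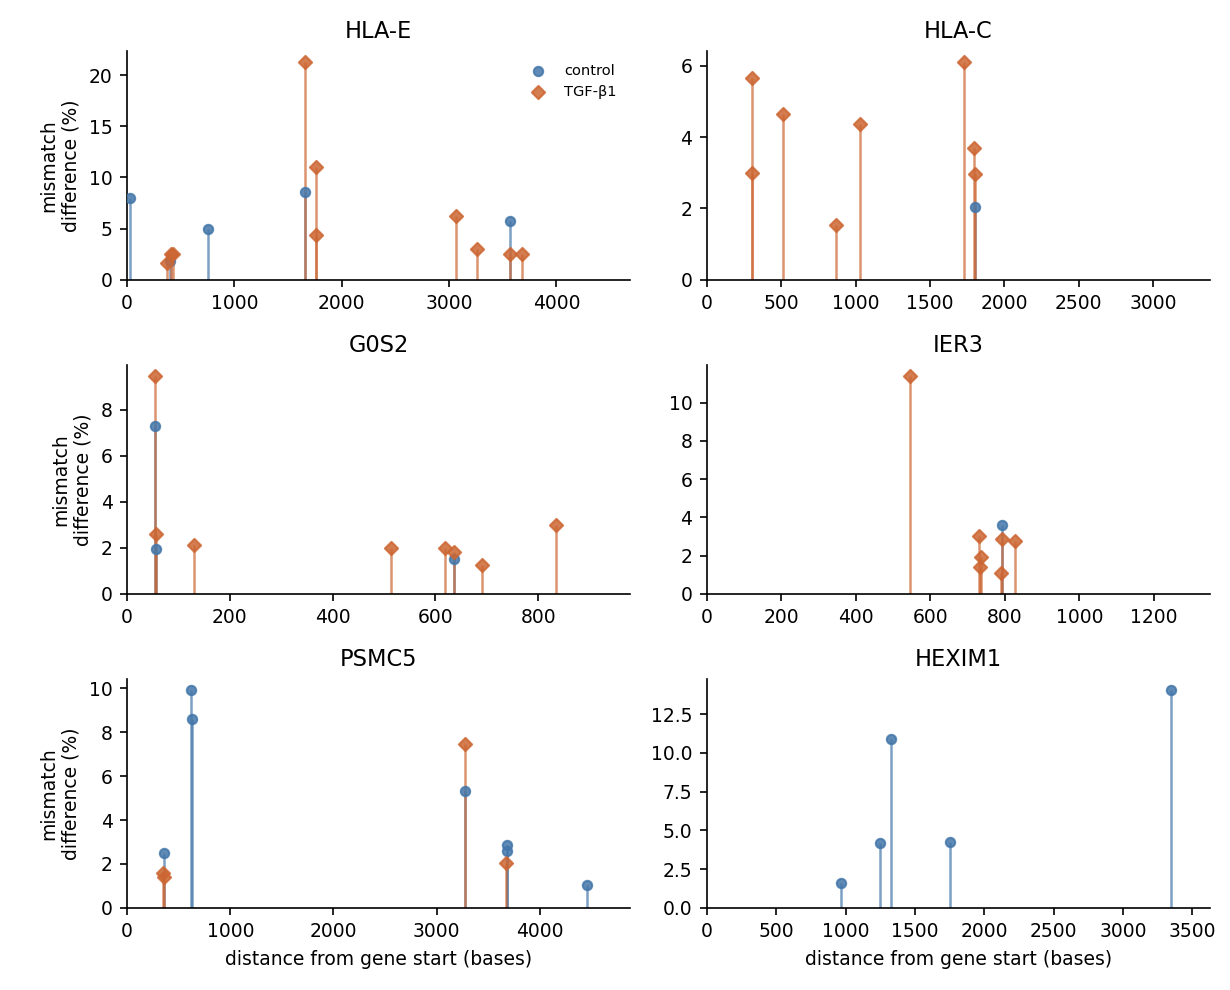
Each panel shows 1 gene of the text, with the distance of each listed cytidine from the gene start (x, bases) and its mismatch difference (y, percent) in control (circles) and after TGF-β1 (diamonds). HLA-E, HLA-C, G0S2 and IER3 have more diamonds (10, 8, 8 and 7) than circles, PSMC5 has 4 against 7, and HEXIM1 has 5 circles alone.

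Ribosomal protein genes formed the largest group, with 27 short genes listed, 22 control and 66 TGF-β1 positions. In this and every list below, only genes with a listed position were counted. More positions were listed after TGF-β1 in 20 genes and fewer in 2, and 11 of 13 shared cytidines were higher, with a median difference of 0.94 points against 1.48 over all members. These counts lie near those of all short genes, of which 68.8% had more positions and 80.3% of the shared cytidines were higher, and the counts of every list below are to be read against these shares. RPL13 had 1 and 7 positions and 4.84% and 8.87% at the shared one. RPL35 had 1 and 6 and 10.4% and 12.4%, and RPL7A had 3 and 5, with 3.05% and 4.86% at 1 of its 2 shared 5′UTR cytidines. RPS6, the subunit phosphorylated downstream of mTOR, had 3 and 3 and went both ways at neighbouring bases, with 1.83% and 1.64% at one and 1.60% and 2.56% at the next. Many ribosomal protein genes have near-identical pseudogene copies, so their positions are uncertain.

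Genes of mitochondrial energy supply had the most uneven numbers of the lists compared, at 7.5 and 5.67 positions after TGF-β1 for each in control. The 7 mitochondrially encoded genes had 2 control and 15 TGF-β1 positions, with more in 6 genes and fewer in 0. MT-ND6, a subunit of complex I, held both control cytidines, 1.40% and 1.61%, which stood at 3.29% and 4.49% after TGF-β1. MT-CYB of complex III had 4 positions after TGF-β1 alone, from 2.53% to 7.18%, and MT-CO1 of complex IV had 3 from 2.52% to 4.42%. MT-ATP6 of the ATP synthase had 2 positions, of 1.58% and 1.41%, both after TGF-β1 alone. Nuclear copies of mitochondrial sequence make these positions uncertain.

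The 13 short nuclear genes of oxidative phosphorylation had 3 and 17 positions, with more in 11 genes, fewer in 2 and no shared cytidine. UQCC3, an assembly factor of complex III, had 1 at 1.10% in control and 4 from 3.17% to 12.6% after TGF-β1. ATP5F1D, CYC1 and UQCRQ had none in control and 2 each after TGF-β1, the highest being 7.07% in CYC1. The 17 mitochondrial ribosomal protein genes had 19 and 37, with more in 12 genes and fewer in 1, and 6 of 8 shared cytidines were higher. MRPS34 had 22.3% and 25.5% at its shared coding cytidine, and a second coding cytidine 2 bases away had 17.4% in control alone. MRPL16 had 3 and 2 positions, with 8.26% and 8.28% at its shared cytidine, and MRPL12 had 1 and 3, with 1.02% and 2.62%.

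Immediate early genes, which cells transcribe within minutes of a stimulus, and genes grouped with them had 13 short members with 18 and 52 positions. More were listed in 11 genes and fewer in 1 (ZFP36L2, 1 and none), and 10 of 12 shared cytidines were higher, with a median difference of 0.76 points. IER5 had 3 and 6 positions, and its 3 control cytidines stood at 15.1% and 21.2%, 5.33% and 6.99%, and 6.24% and 6.50%. PPP1R15A, which reverses the eIF2α stress signal, had 2 and 7, with 2.35% in both tables at the shared one. GADD45B, a stress gene, had none in control and 5 after TGF-β1, the highest 8.15%. JUNB, a subunit of AP-1, had 1 in control at 15.6% in its 3′UTR and 6 others after TGF-β1 from 2.36% to 8.19%, none of them shared.

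The listed short genes known as targets of TGF-β or BMP signalling were 4, with 6 and 13 positions, more in 2 genes (CCN1 and JUNB) and fewer in none. Of these genes, CCN1, CCN2 and JUNB were also counted with the immediate early genes. CCN1, a matricellular protein, had 3 and 5 positions, and its shared cytidines stood at 2.49% and 2.58%, 7.55% and 6.18%, and 3.03% and 7.38%. CCN2, the connective tissue growth factor, had different cytidines in each table, at 2.31% in control and 3.02% with TGF-β1. ID1, a BMP target that blocks helix-loop-helix factors, had 9.87% in coding sequence in control and 4.95% in the 3′UTR after TGF-β1. CCN1 thus went both ways, and CCN2 and ID1 shared no cytidine between the tables.

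Actin and contractile genes had 5 short members with 5 and 14 positions, more in 4 and fewer in none, and 2 of 4 shared cytidines were higher. RHOB, a GTPase of the actin cytoskeleton, had 2 and 5, and its adjacent 5′UTR cytidines were lower after TGF-β1, at 5.43% against 6.92% and 8.85% against 9.75%. PFN1, profilin, had 1 and 3, with 3.77% and 4.56% at the shared one. CAVIN3, a coat protein of caveolae, had 1 and 3, and TMSB10, an actin-binding thymosin, none and 2. The 3 tubulin genes had 3 and 8, with both shared cytidines, in TUBB4B, higher (6.83% and 9.03%, 1.44% and 1.95%). TUBA1B had 1 and 1 and TUBB2A none and 2, and tubulin genes resemble each other closely.

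Secreted and matrix genes of at most 5 kb were the 1 list of over 1 gene with fewer positions after TGF-β1. They were 8 of the 42 genes of this list with a listed position at any span, and no collagen gene was among them. Its 8 short genes had 11 and 9, more in 4 and fewer in 3, and 0 of 2 shared cytidines were higher. CXCL8 had 3 and none, and DKK1, a secreted inhibitor of Wnt signalling, 3 (3.77%, 2.23% and 1.94%) and 1 (1.95%), at different cytidines. TIMP1, the inhibitor of matrix metalloproteinases made by activated stellate cells, had 2 and 2, with 3.43% and 2.79% at its shared 3′UTR cytidine. IGFBP6, which binds insulin-like growth factor II, had 1 and 2.

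Redox and iron genes had 9 short members with 6 and 26 positions, and all 9 had more after TGF-β1, while 3 of 5 shared cytidines were higher. GPX4, which reduces lipid peroxides and guards against ferroptosis, had 2 and 5, and its adjacent 5′UTR cytidines stood at 2.41% and 4.98% and at 3.04% and 5.71%. FTL, the ferritin light chain, had 1 and 4, with 3.24% and 2.10% at the shared 3′UTR cytidine and 7.18% after TGF-β1 alone at the last base of its RefSeq window. PRDX2 had none and 5, from 1.88% to 8.04%, and PRDX5 1 and 4, both peroxide-reducing enzymes.

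Chaperone genes had 6 short members with 3 and 15 positions, more in all 6 and with no shared cytidine. HSPB1, a small heat shock protein, had 2.65% and 1.92% in control and 5 others from 3.07% to 6.59% after TGF-β1. SDF2L1, of the endoplasmic reticulum, had 1 at 7.81% and 5 from 4.17% to 13.8%. HSPA1A and HSPA1B, with 0 in control and 1 and 2 after TGF-β1, are nearly identical copies and uncertain. Translation factors had 5 short genes with 3 and 12, more in all 5, among them TUFM with 2 and 4, EIF3G with 1 and 4 and 1.81% and 3.13% at its shared cytidine, EEF1B2 with none and 2 and EIF1 with none and 1.

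Genes of MHC class I and peptide loading had 5 short members with 9 and 22 positions, more in 3 and fewer in none, and 3 of 3 shared cytidines were higher. HLA-E and HLA-C held 18 of the 22, and PSMB8, an immunoproteasome subunit, had 1 and 2 and PSME1, its activator, 1 and 1. The HLA genes are polymorphic and resemble each other, so their positions are uncertain. Proteasome and ubiquitin genes had 12 members with 21 and 33, more in 7 and fewer in 2, and 8 of 12 shared cytidines higher. PSMB6, a catalytic subunit, had 5 and 4, with its 4 shared cytidines higher after TGF-β1, from 4.06% and 4.33% to 2.62% and 5.59%. UBB, a polyubiquitin gene of repeated and near-identical units, had 1 and 6, with 2.79% and 2.44% at the shared one.

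Splicing and RNA-binding genes had 5 members with 5 and 14, more in 4 and fewer in none, and no shared cytidine. ALYREF, an mRNA export adaptor, had 8.75% and 1.54% in control and 5 others from 1.43% to 4.12% after TGF-β1. PCBP1, which binds C-rich RNA, had 1 and 5, SF3B5 1 and 2, and SRSF2 1 and 1. Histone genes had 8 members with 6 and 14, more in 6 and fewer in 2. H1-10 had none and 3, the highest 10.8%, H2AX 1 and 3, and H2AJ 3.69% in control and 28.3% at a base 3 before it after TGF-β1. H3-5 closely resembles other histone genes, so its position is uncertain.

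Glycolysis had 2 short genes with 5 and 7, GAPDH with 2 and 4 and both shared cytidines higher (4.24% and 6.32%, 2.22% and 3.08%), and TPI1 with 3 and 3 at different cytidines. S100, galectin and tetraspanin genes had 3 with 5 and 7, among them CD63, a marker of late endosomes, with 4.37% and 8.68% and 4.23% and 6.33% at its shared cytidines. LGALS1, galectin-1, stood at 3.53% and 2.73% and S100A6 at 5.24% and 5.48%. Of markers of other liver cell types only CD68 was a listed short gene, with 3 and 2 positions, and of stellate cell markers only TIMP1. The tables hold no expression values, so the cell type could not be checked against its markers here.

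**Figure D5:**
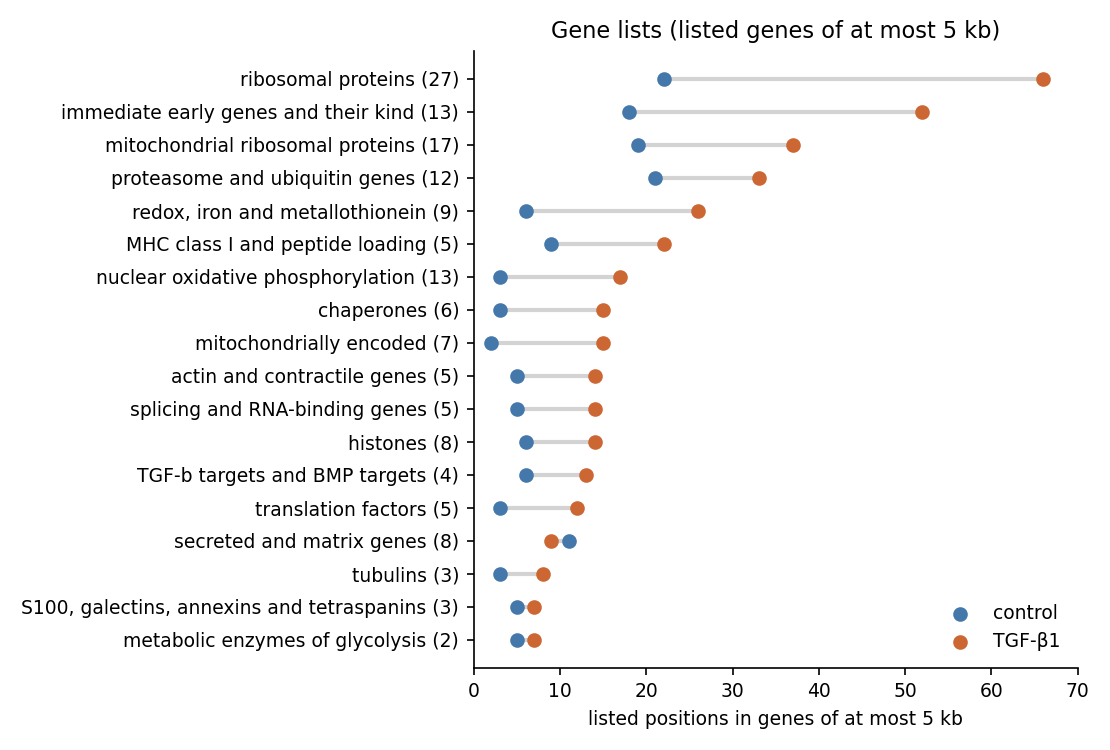
For each gene list, with the number of its short genes listed in brackets, the dots give the number of listed positions (x) in control and after TGF-β1. In 17 of the 18 lists the TGF-β1 dot lies to the right, most widely for ribosomal proteins (22 and 66), and in secreted and matrix genes it lies to the left (11 and 9).

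The excess was present outside these lists too. The 318 short genes in no list had 279 and 578 positions, a ratio of 2.07, with more in 208 and fewer in 66. The 146 in a list had 146 and 365, a ratio of 2.50, with more in 111 and fewer in 14. By chromosome, the most members of the TGF-β1 table lay on chromosome 19, with 43 in control and 123 after TGF-β1, followed by chromosome 11 with 43 and 92 and chromosome 16 with 33 and 79. Chromosome 17 had the most in control, 51, and 75 after TGF-β1. Chromosome 4, where CXCL8 and MRFAP1 lie, had 18 and 17, the 1 chromosome with fewer after TGF-β1. Its share of the members was 4.24% in control and 1.80% after TGF-β1. Its share of all listed positions was also lower after TGF-β1, at 1.69% against 2.42%. Of the TGF-β1 members, 13.0% lay on chromosome 19, 9.76% on chromosome 11 and 8.38% on chromosome 16. Of all TGF-β1 positions these chromosomes held 11.7%, 7.95% and 4.91%. Chromosome 17 held 7.95% of the TGF-β1 members and 9.53% of all TGF-β1 positions.

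At the limit of 5000 bases, the genes just inside were HYAL2 (4993 bases, none in control and 1 after TGF-β1), SSR4 (4984, none and 2) and NOP16 (4982, 1 and 2). Those just outside were MIF4GD (5004 bases, 1 and none), RPS3A (5019, none and 3) and ZNF32 (5022, 1 and none). A position can lie in several overlapping genes, which held for 14 control and 44 TGF-β1 members, and by RefSeq's own spans 13 of the 448 named genes were longer than 5000 bases.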

How the data were processed

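Polyadenylated RNA of LX-2 cells, treated with NaBH4, was measured in 2 control and 2 TGF-β1 libraries, grouped by their titles. The submitters' processing notes name build hg38 and, without a role, STAR 2.7.6a, featureCounts and fastp 0.23.1. The position caller and how replicates were joined were not given in the sources used. For each group the authors deposited a table that, per the file headers, holds a column named diff, a fraction of at least 0.01 printed here in percent as the mismatch difference, and a p-value below 0.05 that was not stated to be adjusted. What diff subtracts is not stated.

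Lines were merged to 1 per position and gene, and noncoding exons (123 control and 118 TGF-β1 pairs in short genes) were left out. A location was coding sequence if any transcript gave it so, otherwise 5′UTR, otherwise 3′UTR. Positions were shared when base and strand were the same. The end coordinate is the 1-based position. Ratios have exact binomial and shares Wilson 95% intervals. Log2 ratios were computed from the deposited fractions. Depth is unknown, so the planned model of reads per library was replaced by description, with no test. The summary statistics were tested on simulated data. No genome was used; RefSeq supplied names, spans and the printed windows. Members and gene lists were chosen with earlier results of these data known. Named genes followed a rule: the 8 largest differences in each direction, the 6 highest levels in 1 table alone, the 8 genes with most positions, the 6 largest gains and losses in number, up to 4 genes per list and 3 on each side of the span limit. SLC35A4, ROMO1, DUSP1, GADD45B and ZFP36L2 fall outside it and were chosen after their values were seen. An item that the rule names is not reported here. Python 3.11.15, pandas 2.3.3, NumPy 2.4.6, SciPy 1.17.1 and matplotlib 3.10.9 were used.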

Additional observations from a re-analysis of the deposited data

How the results depend on the processing

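Each of 6 results was recomputed under 11 other settings, of which 10 were planned and 1, taking the span from RefSeq instead of the tables, was chosen after seeing the data. Of the 66 values 60 stayed within the interval of the main result, 6 moved outside it and 0 reversed. Reversal could be seen only for the ratio, the share of shared positions that were higher and the median difference. The other shares had no direction to check. The ratio of listed positions was 2.77 with the authors' p below 0.001, 2.50 with mismatch differences of at least 5%, and 1.68 with the TGF-β1 table shortened. Shortening also took the share of genes with more positions to 57.5%, since fewer TGF-β1 positions then count. Of these values only the shortened ratio was also computed over all genes, at 1.02. The others are therefore no comparison of short genes with all genes. Over all genes, too, the median authors' p was lower after TGF-β1 (1.05e-05) than in control (3.43e-04). The median difference was 1.93 points at levels of at least 5%, and 43.6% of control positions were listed again with a span limit of 3000 bases; the cause of these was not tested. Leaving out pairs with any noncoding exon line changed no value. No paired analysis was possible because each table gives 1 value per position for the whole group. For the same reason the coverage minimum and leaving out 1 library at a time were not run, and what depth limits is unknown.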
